A study of Mus musculus with 13 samples.

Results

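The cyclic nucleotide phosphodiesterases examined here are 10 genes, Pde8a, Pde8b, Pde7a, Pde7b, Pde4a, Pde4b, Pde4c, Pde4d, Pde3b and Pde2a. They were followed in bone marrow progenitors of mice that overexpress the coactivator OBF1 and of wild type (WT) littermates. Every probe set that the platform annotation gives to only 1 of these symbols was taken. This left 27 probe sets of 9 genes, out of 18193 genes with such a probe set on the array, and Pde4c is not analysed here. The family was selected on the difference between the genotypes in these same arrays, where Pde8a had been noticed for its size. All differences between genotypes of these genes are therefore given as a description and without a test.

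Phosphodiesterases hydrolyse cAMP and cGMP and end the signals that adenylyl and guanylyl cyclases start. Pde4, Pde7 and Pde8 enzymes are specific for cAMP, Pde3b cleaves cAMP and is inhibited by cGMP, and Pde2a cleaves both nucleotides and is stimulated by cGMP. In lymphocytes cAMP acts mainly through protein kinase A and the exchange factors of the EPAC family, and it generally dampens activation and proliferation.

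EPLMs, early progenitors with lymphoid and myeloid potential, were sorted from the bone marrow of 7 week old mice with B220, c-kit and CD93 among the positive markers and NK1.1 among the negative ones. The RNA of 3 WT and 3 BCS mice was hybridized to Mouse 430v2 GeneChips, with 1 mouse per array. BCS mice carry a transgene with an HA-tagged human OBF1 cDNA behind a mouse immunoglobulin heavy chain promoter and the intronic heavy chain enhancer, elements that are active in B cells and also in T cells. The transgenic lines, of which several were obtained, were bred in B6CF1 x C57BL/6 and intercrossed, and the sources used here do not say which line was arrayed. Large preB cells were also hybridized, but their values do not follow the names of their rows and were not used.

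The values are linear GCRMA intensities, and every array had a median of 20. An intensity at or below 20 is treated as carrying little signal over background. A difference is BCS minus WT of log2(intensity + 1), with its standard error (SE) from a limma fit, and a gene is represented by the probe set with the highest mean over the 6 arrays. Since whole sorted populations were measured, fewer cells of a type and less RNA per cell cannot be told apart.

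Arrays of 1 genotype correlated with r of 0.993 to 0.9947 and arrays of different genotypes with 0.9845 to 0.988 over all probe sets. WT replicate 2 stood apart in its markers of other cells. Its intensity of Pf4, a platelet chemokine, was 2805, against 120.7 and 80.2 in the other WT mice and 55.5 to 78.0 in BCS mice, and its summed level of 13 myeloid markers was 112500, against 30270 and 31170 in WT mice and 11210 to 76170 in BCS mice. The summed level of 9 B cell lineage markers was 46680, 64490 and 38580 in WT mice 1 to 3 and 94310 to 100600 in BCS mice, and 7 of the 9 were called higher by limma. The sum of 11 markers of plasmacytoid dendritic cells was 88290 to 96880 in WT and 42910 to 56960 in BCS mice, with 8 of 11 called lower. For 10 NK cell markers it was 8278 to 14990 in WT and 1485 to 4288 in BCS mice, with 2 called lower, Klrd1 and Klrk1. Klrd1 made up most of the WT sum, at 6901 to 8110 in WT and 1087 to 2430 in BCS mice. The other NK cell markers had lower means in BCS mice but overlapped between genotypes, and none of them was called. For 6 T cell markers the sum was 581 to 1309 in WT and 1564 to 2020 in BCS mice, with Thy1 called higher and Cd8a lower. The higher T cell sum is that of Thy1, at 401 to 898 in WT and 1438 to 1917 in BCS mice, and the other 5 T cell markers had a lower mean in BCS mice. Of the myeloid markers 1 was called lower. For 9 markers of erythroid cells and megakaryocytes, of which none was called by limma and 3 had an unadjusted p under 0.05, the sum was 355 to 4165 in WT and 279 to 325 in BCS mice, and Hba-a1, the defining globin, was below 20 on all 6 arrays. Of the genes of the sorting gate, Kit differed by -0.01 (adjusted p = 0.983), Cd93 by 0.29 (adjusted p = 0.322) and Ptprc, which encodes B220, fell by 0.40 (adjusted p = 0.0101, all from limma). The part of these cell types in the phosphodiesterase differences was not tested. Klrb1c, which encodes NK1.1, is not analysed here.

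OBF1 acts through Oct1 and Oct2 at octamer sites, and CREB proteins bring cAMP signals to cAMP response elements, so the start regions of the members were searched for both motifs. RefSeq windows of build GRCm38.p6, from 250 bases before to 50 bases after a transcription start, were at hand for 8 of the genes, 21 windows in all. The 250 bases upstream of Pde8a (chr7:81213015-81213264, plus strand), the member with the largest difference, and of Pde4d (chr13:108653927-108654176, plus strand), which was also higher in BCS mice, are shown. Pde8a and Pde4d were chosen because each has 1 window here, which need not be its only start. Capitals mark TGACG, the core of a cAMP response element, and ATGCAAA, the first 7 bases of the octamer, on either strand, and the runs touch in Pde8a.
Pde8a: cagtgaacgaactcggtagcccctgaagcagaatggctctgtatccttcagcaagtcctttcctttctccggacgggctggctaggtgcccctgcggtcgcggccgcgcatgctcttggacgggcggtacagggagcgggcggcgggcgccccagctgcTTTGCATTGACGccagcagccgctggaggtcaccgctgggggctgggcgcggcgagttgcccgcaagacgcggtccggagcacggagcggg
Pde4d: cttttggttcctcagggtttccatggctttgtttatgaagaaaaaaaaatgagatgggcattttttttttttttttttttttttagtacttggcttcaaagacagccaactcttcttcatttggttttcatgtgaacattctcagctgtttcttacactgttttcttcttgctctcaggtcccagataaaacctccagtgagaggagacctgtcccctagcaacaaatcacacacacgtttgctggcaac

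The whole octamer ATGCAAAT, searched on both strands, was in 0 of the 21 windows and in 1.74% of all 32851 windows of this length. The whole element TGACGTCA was likewise in 0 of 21 and in 1.79% of all windows. The shorter TGACG was in 5 of 21 windows, 1 each of Pde8a, Pde8b, Pde4a, Pde4b and Pde2a, and in 20.8% of all windows. ATGCAAA, chosen after the Pde8a sequence had been seen, was in 1 of 21 and in 4.63% of all windows. In Pde8a it starts 91 bases before the transcription start on the minus strand, directly followed by TGACG at 84 bases. The sequences also differ in composition, with 68.8% G and C upstream of Pde8a and 38.8% upstream of Pde4d, around a median of 52.4% over all windows. A match is a description of letters and not a bound site.

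Pde8a encodes a cAMP-specific enzyme with a very high affinity for its substrate, which works at resting cAMP levels. Its intensity was 34.6, 60.9 and 36.1 in the 3 WT mice and 545, 1189 and 995 in the 3 BCS mice. Every BCS mouse lay far above every WT mouse, while the WT values were close to the lower range of the array. In WT mice the mean was 43.8 ± 14.8 (SD, n = 3), and BCS mice had a mean of 910 ± 331 (SD, n = 3), which makes a log2 difference of 4.32 (SE 0.32), or 19.9-fold. Without the WT mouse that stood apart the difference was 4.57. The second Pde8a probe set read 12.2, 12.7 and 13.5 in WT and 20.3, 30.9 and 21.0 in BCS mice. It was higher in BCS mice too, by 0.84 (SE 0.16). However, all of its WT values were below the array median, and the BCS values of 20.3 and 21.0 lay close to it. The probe sets thus differ greatly in the size they give. Pde8b, the other gene of this subfamily, had both probe sets below 20 on all 6 arrays. Its brighter probe set was at 13.9, 19.97 and 18.8 in WT and 13.5, 17.8 and 16.1 in BCS mice, where the genotypes overlap.

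**Figure D1:**
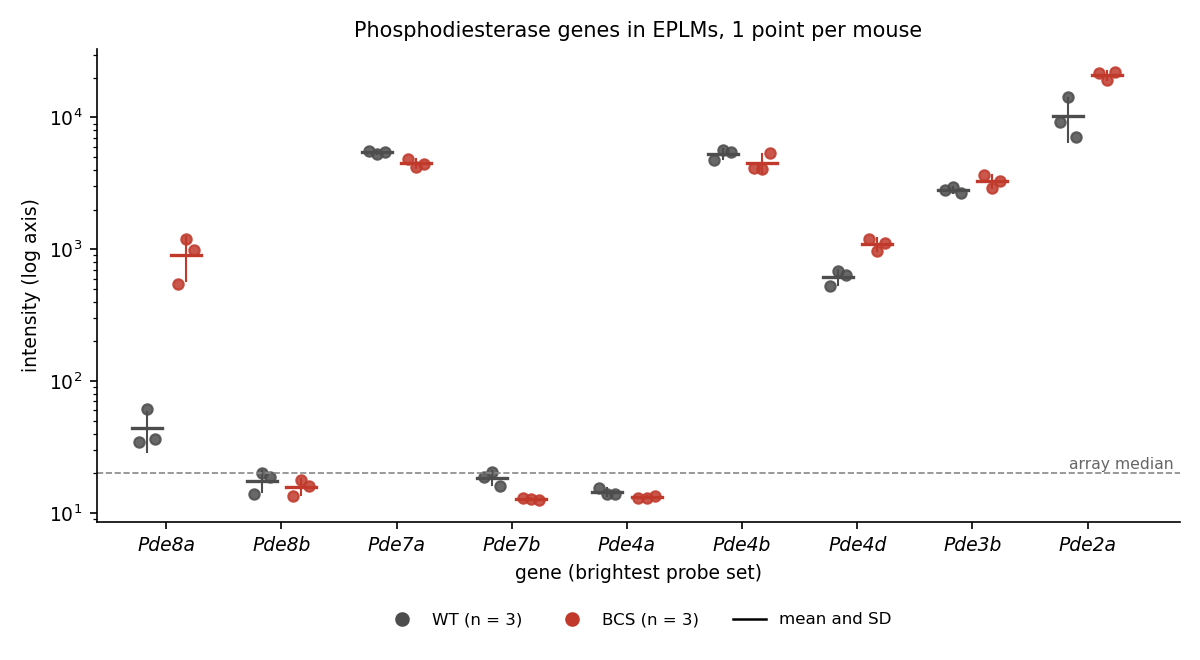
Intensity (log axis) of the brightest probe set of each of the 9 phosphodiesterase genes, 1 point per mouse, with the mean and SD of 3 WT (grey) and 3 BCS (red) mice and the array median of 20 as a dashed line. Pde8a went from 43.8 in WT to 910 in BCS mice, Pde4d and Pde2a were higher in every BCS mouse, Pde7a was lower, and Pde8b and Pde4a stayed at or below 20.

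The Pde4 enzymes, the targets of rolipram and the main cAMP hydrolases of leukocytes, did not move together. Pde4d was at 527, 686 and 640 in WT and at 1198, 965 and 1116 in BCS mice. The lowest BCS mouse was above the highest WT mouse. The means were 618 ± 81.5 (SD, n = 3) and 1093 ± 118 (SD, n = 3), a log2 difference of 0.83 (SE 0.15), and a second probe set of the gene was below 20 on all arrays. Pde4b, the form that inflammatory signals induce in leukocytes, had 3 probe sets above 20, and they pointed in different directions. The brightest read 4775, 5711 and 5450 in WT and 4141, 4076 and 5361 in BCS mice, a difference of -0.24 (SE 0.12). The next read 2595, 2413 and 2378 in WT and 4144, 2502 and 3324 in BCS mice, a difference of 0.40 (SE 0.17). In the brightest the genotypes overlap because BCS replicate 3 lay inside the WT range, and in the next the BCS values begin between WT replicates 1 and 2. One more Pde4b probe set, at 718, 609 and 608 in WT and 1079, 659 and 924 in BCS mice, had a difference of 0.43 (SE 0.19), also with overlap. No direction can be given for Pde4b as a gene. Pde4a was represented by 1 probe set, with all 6 values between 12.97 and 15.6, below the array median.

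Pde7a encodes a cAMP-specific enzyme known from T cells, and it was the member measured by the most probe sets. The brightest read 5562, 5296 and 5484 in WT and 4870, 4214 and 4414 in BCS mice. Its suffix marks probes that match several transcripts. All BCS mice lay below all WT mice, although the shift was small. The WT mean was 5447 ± 136 (SD, n = 3) and the BCS mean 4499 ± 336 (SD, n = 3), with a log2 difference of -0.28 (SE 0.08). Of the 7 probe sets of Pde7a, 6 had every BCS mouse below every WT mouse, with differences from -0.26 to -0.51. The probe set with the difference of -0.51 (SE 0.11), without such a suffix, was at 2705, 2611 and 2851 in WT and at 2167, 1704 and 1886 in BCS mice. The seventh, the dimmest, ran from 36.3 to 75.2 with overlapping genotypes and a difference of -0.15. Probe sets of 1 gene share their transcripts, so their agreement is not replication. Pde7b, the related gene known from brain, had a probe set at 18.9, 20.4 and 16.1 in WT and 12.9, 12.8 and 12.5 in BCS mice. The difference of -0.50 (SE 0.11) was thus formed around and below the array median, and with intensities under 20 set to 20 it was -0.01. Another Pde7b probe set, below 20 on all arrays, had a difference of the opposite sign, 0.31.

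Pde2a carries domains that bind cGMP, and 2 of its 3 probe sets were above 20. One read 9199, 14400 and 7119 in WT and 21710, 19130 and 22150 in BCS mice. The genotypes did not overlap, but the WT mice were widely spread. The means were 10240 ± 3753 (SD, n = 3) and 21000 ± 1628 (SD, n = 3), a difference of 1.10 (SE 0.21), or 2.14-fold. The suffix of this probe set marks probes that match several transcripts. The other, without such a suffix, read 1641, 2722 and 1162 in WT and 7048, 6176 and 6826 in BCS mice. Here the lowest BCS mouse was above the highest WT mouse by a wide margin, and the difference was 1.95 (SE 0.25), or 3.85-fold. Without WT replicate 2 the difference of the brightest probe set was 1.37. Pde3b, the form that insulin activates in fat and liver, was at 2822, 2989 and 2692 in WT and at 3633, 2937 and 3277 in BCS mice. The genotypes overlap in 1 BCS mouse, with means of 2834 ± 149 (SD, n = 3) and 3283 ± 348 (SD, n = 3) and a difference of 0.21 (SE 0.10).

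**Figure D2:**
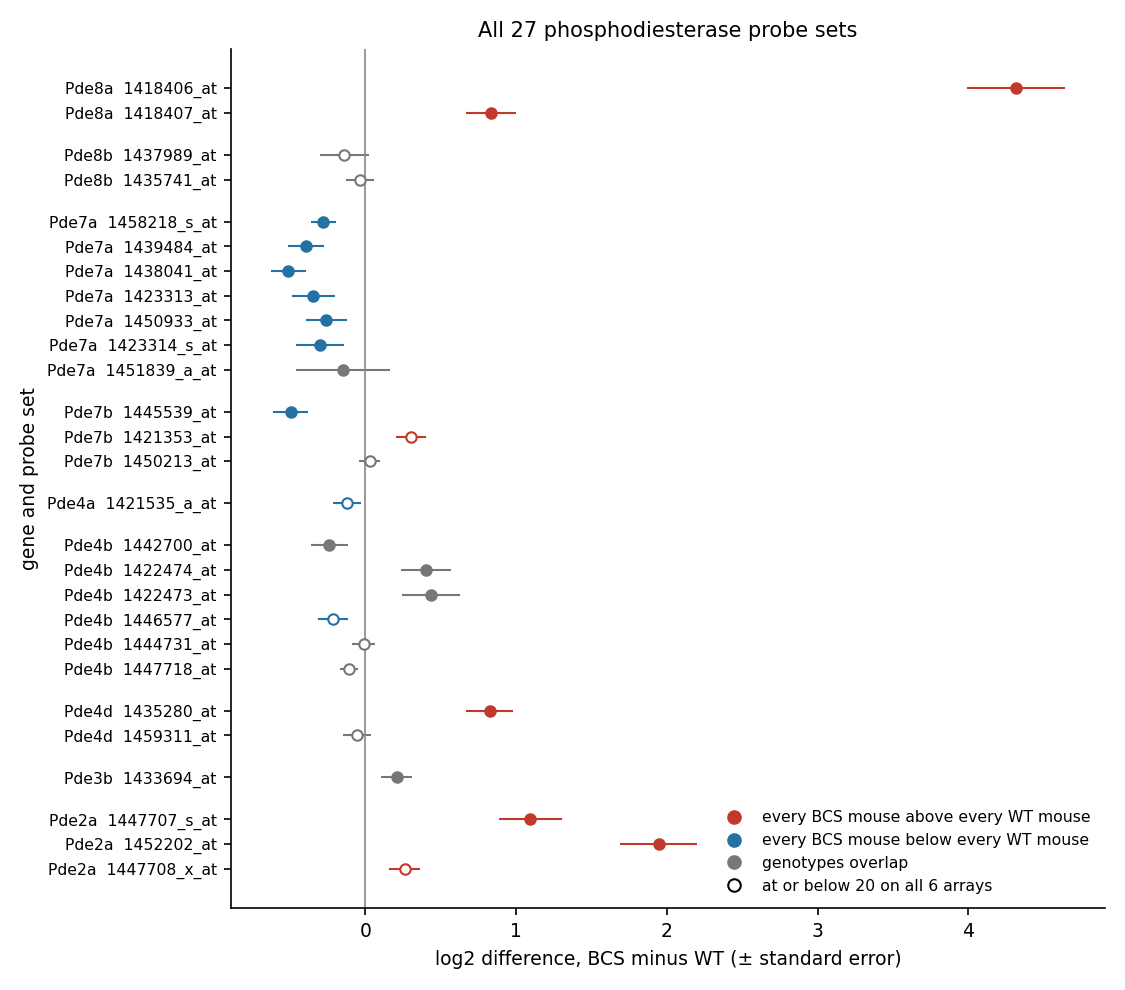
Log2 difference (BCS minus WT, with its standard error) of all 27 phosphodiesterase probe sets, grouped by gene and ordered by brightness within a gene. Red and blue mark probe sets whose 3 BCS mice all lie above or below the 3 WT mice, grey marks overlap, and open symbols mark probe sets at or below 20 on all 6 arrays. Pde8a reaches 4.32, both brighter probe sets of Pde2a are at 1.10 and 1.95, and the probe sets of Pde4b lie on both sides of 0.

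In all, 7 of the 27 probe sets had every BCS mouse above every WT mouse and 9 had every BCS mouse below, against 12.6% and 11.2% of all 45037 probe sets. Of the 27, 10 were below 20 on all arrays. Among the 17 that rose above 20 on at least 1 array, 5 were higher without overlap, 7 were lower without overlap, of which 6 belong to Pde7a, and 5 overlapped. By gene, Pde8a, Pde4d and Pde2a were higher without overlap, Pde7a, Pde7b and Pde4a were lower, and Pde8b, Pde4b and Pde3b overlapped, where 14.5% and 14.2% of all genes were higher and lower without overlap. The contrast that chose the genes gave these counts, so nothing is read from them. The median difference of the 9 genes was -0.12, beside 0.01 for all genes. It is the value of Pde4a, which was below the array median in every mouse, so no shift of the family is read from it.

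Among the WT mice, replicate 2 was often the highest across the family, which was not tested. Of the 9 genes, 7 had their highest WT value in replicate 2, namely Pde8a, Pde8b, Pde7b, Pde4b, Pde4d, Pde3b and Pde2a. For Pde8b and Pde7b that value was 19.97 and 20.4, around the array median. Over all genes, WT replicate 2 was the highest WT mouse in 34.6%. This mouse also had the highest summed B cell lineage markers and the highest myeloid and platelet markers among WT mice, and the part of those cells in its phosphodiesterase values was not tested. Among the BCS mice the highest value was in replicate 1 for 4 of the 9 genes, in replicate 2 for 2 and in replicate 3 for 3. Over all genes these replicates were the highest BCS mouse in 39.5%, 28.6% and 31.9%. Pde8a was lowest in BCS replicate 1 and Pde4d was highest there. When each of the 6 mice was left out in turn, the difference stayed between 4.09 and 4.65 for Pde8a, between 0.72 and 0.91 for Pde4d, between 0.86 and 1.37 for Pde2a and between -0.34 and -0.23 for Pde7a.

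**Figure D3:**
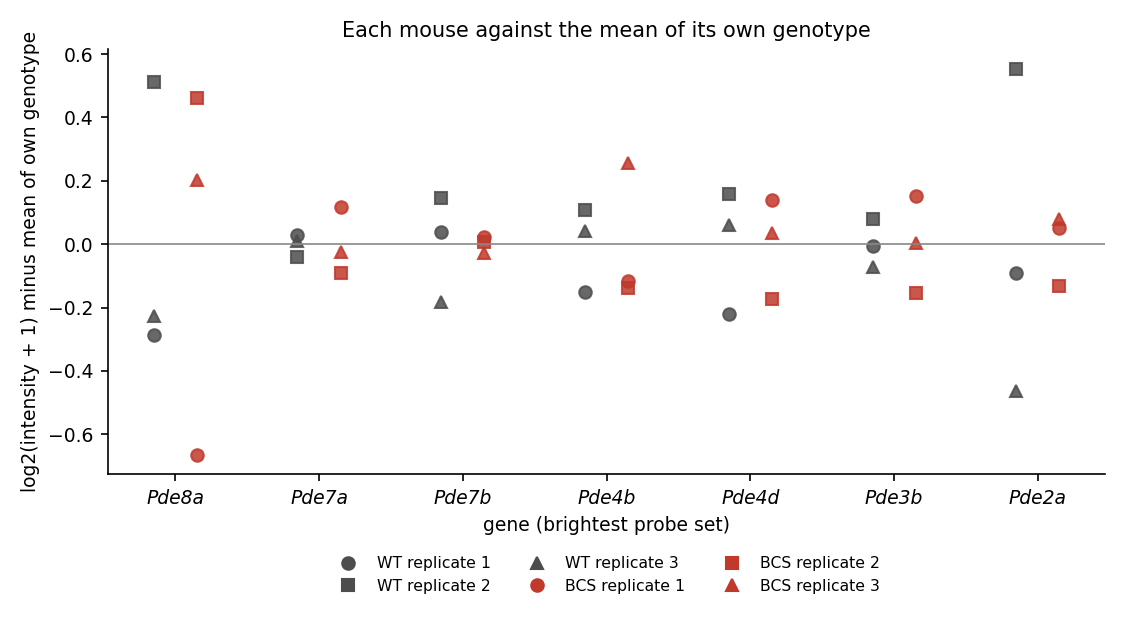
Log2(intensity + 1) of each mouse minus the mean of its own genotype, for the brightest probe set of the 7 phosphodiesterase genes above 20 on at least 1 array (grey WT, red BCS, symbol by replicate number). WT replicate 2 (grey squares) is the highest WT mouse in 6 of these genes and Pde7a is the exception.

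Among 984 probe sets of other genes that spanned at least 2 on the log2 scale, the patterns most like that of Pde8a over the 6 arrays were Ckap4 (r = 0.998 and 0.993 for its 2 probe sets), Cbr3 (r = 0.994), Spata6 (r = 0.992) and 5730488B01Rik (r = 0.991). The 6 arrays share the difference between genotypes, which sets most of such a correlation. Ckap4, a membrane protein of the endoplasmic reticulum, was at 118 ± 16.6 (SD, n = 3) in WT mice and at 501 ± 79.2 (SD, n = 3) in BCS mice, or 4.22-fold. These values are a description, since the likeness to Pde8a selected the gene.

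The other phosphodiesterases were compared from a list of 14 measured genes. None was called by limma on its brightest probe set or by either form of the methods' t-test, 1 had an unadjusted p under 0.05, and 9 were below 20 on all arrays. That gene is Pde5a, the cGMP-specific target of sildenafil, at 616, 1352 and 632 in WT and at 2117, 1545 and 1548 in BCS mice. Every BCS mouse was above every WT mouse, and WT replicate 2 was again the highest WT mouse. The log2 difference was 1.09 (SE 0.29, limma adjusted p = 0.0698), and 1.17 with an adjusted p of 0.0495 for a second probe set, while the remaining one overlapped between genotypes, with 0.74 and an adjusted p of 0.411. Without WT replicate 2 the difference of the brightest was 1.46 and passed (adjusted p = 0.00406 from limma), and that of the dimmest probe set did not (adjusted p = 0.0667). Pde6d, a chaperone of prenylated proteins, had a difference of 0.03 (adjusted p = 0.959).

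Across the rest of the pathway, 83 of 95 listed genes were measured, these 14 included, and limma called 2 higher and 11 lower, where 3.15% and 4.7% of all 18193 genes were called. Among the 8275 genes above 100 on average these shares were 5.5% and 8.29%. Of the 83, 23 were below 20 on all arrays. Leaving out WT replicate 3 left 8 calls, and 7 of the 13 genes were called whichever mouse was left out, namely Adcy7, Ptger4, Pkib, Rapgef3, Arrb1, Fos and Sik1. Only Adcy7 and Pkib were also called by the methods' t-test after adjustment. The lists were chosen with earlier results of these data known.

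Among the measured Gs-coupled receptors and adenylyl cyclases, 1 gene each was called lower. Ptger4 encodes the prostaglandin E2 receptor EP4, which couples to Gs and raises cAMP. It read 17830, 15890 and 17670 in WT and 8727, 6799 and 8054 in BCS mice. It fell by 1.13 (SE 0.09, limma adjusted p = 0.000259), with both probe sets called. Ptger2, the EP2 receptor of the same ligand, had a difference of 0.22 (adjusted p = 0.664), and Hrh2, the histamine H2 receptor, of -0.22 (adjusted p = 0.657). Of 4 measured receptors 1 passed, and Adora2a, Adora2b and Adrb1 are not analysed here. Adcy7, the adenylyl cyclase typical of blood cells, was at 15400, 15860 and 16120 in WT and at 9669, 8454 and 9311 in BCS mice. It fell by 0.79 (SE 0.06, limma adjusted p = 0.000207), with 3 of 3 probe sets called. It was the only one of 10 measured cyclases that passed, 5 of which were below 20 on all arrays. Adcy3 had a difference of -0.15 (adjusted p = 0.708) and Adcy6 one of 0.54 (adjusted p = 0.401). Of the 7 measured guanylyl cyclase genes limma and the methods' t-test called none, with 1 at an unadjusted p under 0.05 and 5 below 20 on all arrays. Gucy1a1 and Gucy1b1, the subunits of the nitric oxide receptor, were at 37.7 and 34.4 in WT replicate 2, while Gucy1a1 was between 14.0 and 18.7 and Gucy1b1 between 15.7 and 19.5 in the other 5 mice.

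Among 5 G protein subunits, 2 passed. Gnas, which encodes Gs alpha, fell by 0.28 (SE 0.06, limma adjusted p = 0.0313) on 1 of its 5 probe sets, and the call was lost when any of 5 of the 6 mice was left out (adjusted p up to 0.114). Gnai1, an inhibitory alpha subunit, was called lower on 1 of its 3 probe sets (limma adjusted p = 0.0126). Its values of 37.6, 48.0 and 150 in WT and 12.1, 11.8 and 9.85 in BCS mice put the BCS side below the array median, so no size is given, and WT replicate 3 was far above the other WT mice. Its call was lost with intensities under 20 set to 20 (limma adjusted p = 0.284) and without BCS replicate 3 (limma adjusted p = 0.0544). Gnai2 and Gnai3, further inhibitory subunits, had differences of -0.08 (adjusted p = 0.684) and 0.14 (adjusted p = 0.404).

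Downstream of cAMP, one gene fell and one rose by large amounts. Pkib, an inhibitor of the protein kinase A catalytic subunit, read 1580, 1510 and 1685 in WT and 337, 347 and 290 in BCS mice. It fell by 2.29 (SE 0.14, limma adjusted p = 6.2e-05), and both probe sets passed. Rapgef3, which encodes the cAMP-activated exchange factor EPAC1, read 271, 245 and 464 in WT and 1632, 938 and 1069 in BCS mice. It rose by 1.91 (SE 0.28, limma adjusted p = 0.00507), with 3 of 5 probe sets called. The call was lost with intensities under 20 set to 20 (limma adjusted p = 0.0859) and with the methods' t-test (adjusted p = 0.147 on log2 and 0.216 on linear values). No value of this brightest Rapgef3 probe set was itself under 20. Among 9 kinase subunits and inhibitors Prkar2a, a regulatory subunit, also fell, by 0.98 (SE 0.23, limma adjusted p = 0.045), a call lost when any of 5 of the 6 mice was left out (adjusted p up to 0.157). The catalytic subunit Prkaca, not called, had a difference of -0.34 (adjusted p = 0.0733). Pkig, another inhibitor, had one of 0.05 (adjusted p = 0.788), and Prkar1a one of -0.15 (adjusted p = 0.695). In the list of other effectors, with 3 genes measured, Prkg1 was at 22.8 or below on every array and Prkg2 was below 20.

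Scaffolds hold phosphodiesterases near their substrates. Arrb1, the beta-arrestin that brings Pde4 enzymes to active receptors, rose from 125, 143 and 97.2 in WT to 468, 318 and 323 in BCS mice, by 1.59 (SE 0.22, limma adjusted p = 0.00378). The call was lost with intensities under 20 set to 20 (limma adjusted p = 0.0536), although no Arrb1 value was itself under 20. Its relative Arrb2 had a difference of -0.09 (adjusted p = 0.860). Of 11 A-kinase anchoring proteins 1 passed, Akap11, which fell by 0.48 (SE 0.09, limma adjusted p = 0.0183) and lost its call when any of 5 of the 6 mice was left out (adjusted p up to 0.0683). Others were Akap12, at 0.85 (adjusted p = 0.0537), and Akap13, at 0.24 (adjusted p = 0.339).

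Of 12 genes known to respond to cAMP, 4 fell and none rose, where 4.7% of all genes were called lower. All 12 had a lower mean in BCS mice, with a median difference of -0.48 beside 0.01 for all genes. Low signal limits this count and median. Fosb was below 20 on all 6 arrays, and Nr4a3 and Junb ran from 13.5 to 23.8 and from 17.8 to 31.1, all with overlapping genotypes. Several of the 12 are immediate early genes that many other signals induce. Fos was at 5931, 11890 and 11740 in WT and at 446, 225 and 293 in BCS mice, and fell by 4.92 (SE 0.31, limma adjusted p = 7.3e-05). Sik1, a kinase that cAMP induces, fell by 1.21 (SE 0.16, limma adjusted p = 0.00257) on 1 of its 2 probe sets. Nr4a2, a nuclear receptor, fell by 0.98 (SE 0.21, limma adjusted p = 0.0304) on 1 of its 6 probe sets, and 4 of the 6 fits without 1 mouse lost the call (adjusted p up to 0.107). Rgs2, which limits G protein signals, fell by 0.59 (SE 0.11, limma adjusted p = 0.0167) on 3 of its 4 probe sets, and lost the call without WT replicate 2 (adjusted p = 0.0609) or WT replicate 3 (adjusted p = 0.0502). Btg2, which slows the cell cycle, and Dusp1, a phosphatase of MAP kinases, had differences of -0.50 (adjusted p = 0.323) and -0.45 (adjusted p = 0.152). In the CREB family and its coactivators none of 6 genes was called by limma or the methods' t-test, 1 had an unadjusted p under 0.05, and Creb1 and the coactivator Crebbp had differences of 0.17 (adjusted p = 0.358) and -0.07 (adjusted p = 0.819).

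**Figure D4:**
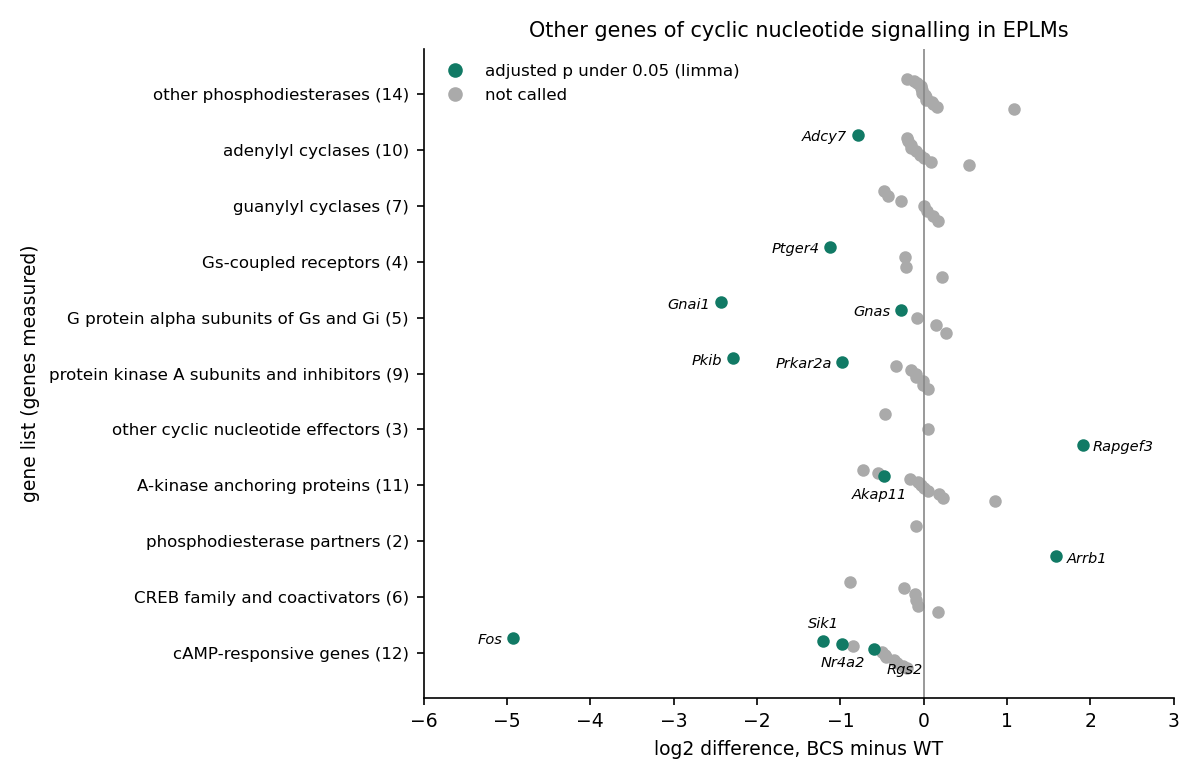
Log2 difference (BCS minus WT) of the 83 other measured genes of cyclic nucleotide signalling by list, 1 point per gene (brightest probe set), with genes called by limma at an adjusted p under 0.05 named and in green. Rapgef3 and Arrb1 are the 2 called genes to the right of 0, the 11 others called lie to the left, and Fos is the farthest at -4.92.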

How the data were processed

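RNA of EPLMs from 3 WT and 3 BCS mice was measured on Mouse 430v2 GeneChips, 1 mouse per array. The authors used GCRMA (version not given in the sources used here), and the deposited values are linear intensities for 45037 probe sets and 64 control features, with a median of 20 per array. The methods name a labeling kit of 2 cycles, whereas the array labels give 1 cycle. The large preB values were left out, since over probe sets they correlated with EPLMs at r = 0.0943, against 0.978 over the control features. The number of arrays limits the precision, intensities near 20 are little above background, and p-values measure the spread between these mice.

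The members, gene lists, markers and tests were chosen with earlier results of these data known. Log2(intensity + 1) was fitted for BCS minus WT without covariates by lmFit and trended eBayes of limma 3.58.1, under R 4.3.3, and p was adjusted by the Benjamini-Hochberg method over 45037 probe sets. A call is an adjusted p under 0.05 with no fold minimum. The fit was tested on simulated data. The platform annotation gives 1 symbol for 34945 probe sets, several for 932 and none for 9160. Tables and plots were made in Python 3.11.15 with pandas 2.3.3 and matplotlib 3.10.9. Named pathway genes are up to 4 called genes of each list with the largest difference plus up to 2 of the brightest others, and Prkaca was added after its value was seen. Promoter sequences are from RefSeq, and a planned comparison of protein sequences was not run. Some items are not reported here. Alternatives were the t-test of the methods (log2 or linear values), another offset, a floor, dropping dim probe sets, quantile normalization, centring, eBayes without trend, a gene's mean or most variable probe set, the replicate number as a block, fold minima, and leaving out each mouse.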

Additional observations from a re-analysis of the deposited data

How the results depend on the processing

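Over all probe sets limma called 2472. The count was 887 with intensities under 20 set to 20, 267 and 164 with the methods' t-test on log2 and linear values after adjustment, 1178 with 2-fold medians added, 1322 with 2-fold medians and an unadjusted p under 0.01, and 875 with that rule under the methods' t-test, an alternative chosen after seeing the data. It ranged from 1401 to 2241 when 1 mouse was left out, and fell most without BCS replicate 2 (1401), WT replicate 3 (1430) and BCS replicate 3 (1591). Of the pathway genes 13 were called, against 6 with the floor at 20, all lower and without Rapgef3 and Arrb1, 2 with either t-test, 8 with 2-fold medians, 7 with 2-fold medians under the t-test at an unadjusted p under 0.01, and 8 to 12 when 1 mouse was left out, with 8 without WT replicate 3. The floor changed no value of the probe sets that represent Rapgef3 and Arrb1, whose lowest values were 245 and 97.2. The cause of the changes in these counts was not tested. With the replicate number as a replicate block, 1920 probe sets and 11 pathway genes were called, Gnas (adjusted p = 0.0781) and Nr4a2 (adjusted p = 0.0616) being lost. Same-numbered mice deviated with r of -0.0002, 0.068 and 0.058, against -0.164 to 0.098 for the other pairs. No pairing by number was seen, but so few mice cannot exclude it.

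The Pde8a difference was 2.58 as the mean of its probe sets instead of 4.32. Under the alternatives run, only Pde4b changed sign, at 0.04 as a mean of probe sets and 0.43 for its most variable one. Pde7b was at -0.26 with an offset of 16, -0.01 with the floor and -0.05 as a mean of probe sets, Pde4d at 0.39 as a mean, Pde7a at -0.15 and Pde2a at 1.95 for the most variable probe set, and Pde4a and Pde8b at 0.00 with the floor. Low signal over background limits Pde8b, Pde7b and Pde4a, the WT side of Pde8a and its dimmer probe set.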
